A study of Mus musculus with 5 samples.

Results

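The genes described here encode mitochondrial respiratory complexes II, III and IV and ATP synthase, with cytochrome c and the assembly factors of these complexes, in erythroid cells of mouse bone marrow. They were chosen by symbol, and no measured value entered the rule. The choice took succinate dehydrogenase genes and their assembly factors (Sdha to Sdhd, Sdhaf), ubiquinol-cytochrome c reductase genes and their assembly factors (Uqcr, Uqcc, Cyc1) and Cycs. It also took the cytochrome c oxidase genes Cox5a, Cox5b, Cox7b and Cox7c, the Cox10 to Cox19 series, Surf1 and Sco1, and every gene with an Atp5 symbol. Of 22180 genes with a probe set of their own, 52 met this rule, and 2 of these, Atp5c1-ps and Uqcrh-ps1, are pseudogenes. The other 50 comprised 33 subunit genes, 16 assembly factor genes and the cytochrome c gene. Cox6c, Cox11, Sco2 and Uqcr10, 4 genes that the rule also names, lay only on probe sets shared with other symbols and were not analysed here.

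The 5 arrays comprised 2 of the wild-type genotype (WT), labelled Polgtm1Lrsn wt/wt, and 3 of the Polg mutant genotype, labelled Polgtm1Lrsn mt/mt, all on a C57BL/6 background. Polg encodes the polymerase that copies mitochondrial DNA, and this mutant form lacks proofreading. Both groups came from 1 type of cross: each parent was Atg7 flox/flox and PolG wt/mt, the mother Epo-cre wt/wt and the father Epo-cre ki/wt. The WT controls therefore carried floxed Atg7 as well, and the sources used here do not say which offspring of either group inherited Cre. The series' design text describes the mice as phlebotomized and its title as aged, the treatment field reads none, and ages and the bleeding schedule are not stated. Cells were depleted of CD45-bearing leukocytes on magnetic beads and then selected for Ter119, an antigen of red cell precursors and red cells. In bulk RNA of this kind, fewer cells of a type and less RNA per cell cannot be told apart. Values are log2 expression, so a difference of 1 is a doubling. The labels do not say that the arrays are from separate animals, so the spread behind each p-value is that between arrays and may be technical.

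The respiratory chain passes electrons from complexes I and II through coenzyme Q to complex III, by cytochrome c to complex IV and on to oxygen, and ATP synthase uses the resulting proton gradient to make ATP. Complex II is encoded wholly in the nucleus, while complexes III and IV and ATP synthase each combine nuclear subunits with core subunits made inside the organelle from mitochondrial DNA. Assembly factors insert hemes, copper and iron-sulfur clusters and join the subunits, but are not part of the finished enzyme. Maturing erythroid cells need mitochondria to make heme and then discard them before they become red cells.

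Erythroid markers were bright: Slc4a1, the band 3 anion exchanger, read 13.37 to 13.58 and Klf1, an erythroid transcription factor, 10.92 to 11.18. Neutrophil markers were present and unequal, with a mean over 14 genes of 8.47 and 7.39 in WT replicates 1 and 2 and of 8.75, 9.14 and 7.60 in Polg mutant replicates 1, 2 and 3. Ptprc, which encodes CD45, followed the same split, at 7.13 and 6.43 in WT against 7.67, 7.40 and 6.06 in Polg mutants. WT replicate 2 and Polg mutant replicate 3 were thus the arrays with least neutrophil and CD45 signal. The Polg probe set read 6.97 on all 5 arrays and does not check the genotype labels, since a point mutation leaves a transcript to be measured.

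The 52 genes were more often higher than lower in the Polg mutant, though none passed the test over all genes. The median log2 difference, Polg mutant minus WT, was 0.11 over the 52 genes and 0.00 over all genes tested. Of the 52, 40 genes were above 0, 10 below and 2 at exactly 0. Over all 22180 genes tested, 10330 were above 0, 10715 below and 1135 at 0. By limma, a linear model with moderated variance, 0 of the 52 genes and 0 (0% of the background) of all 22180 passed an adjusted p of 0.05. The smallest adjusted p among the 52 was 0.242. At an unadjusted p under 0.05, 9 genes were higher (17.3%), against 4.18% of all genes tested, and 0 were lower, against 5.33%. In 15 genes all Polg mutant arrays were above both WT arrays (28.8%, background 8.36%), and in 1 gene all were below (background 9.73%). These counts depend on scaling: they were 17 and 6 after renewed quantile normalization and 14 and 4 with each array centred on its median. Shares of all genes under those scalings were not counted.

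Bright genes passed more often than genes at large. Among the 43 of the 52 with a mean level above a log2 of 6, 20.9% were higher at an unadjusted p under 0.05, against 9.36% of the 8174 genes as bright. Lack of overlap in the upward direction was found in 34.9% of the 43 and in 16.7% of the 8174. The lone gene with every Polg mutant array below both WT arrays in the values as deposited, Atp5g3, made 2.33% of the 43, against 20.6% of the 8174. Leaving out WT replicate 1 took the genes of the group that were higher at an unadjusted p under 0.05 to 5, in a fit that takes the single remaining WT array to vary as the mutants do.

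Fits restricted to fewer genes gave smaller adjusted p-values. Over the 8340 genes that exceeded a log2 of 6 on 2 or more arrays, 0 of 43 genes of the group passed an adjusted p of 0.05 by limma and the smallest was 0.0897, where 0.132% of all genes passed (0.0719% higher, 0.06% lower). In that fit 23.3% of the 43 were higher at an unadjusted p under 0.05 and 0 lower, against 9.69% and 12.7% of all genes. All mutant arrays were above WT in 34.9% (all genes 16.7%) and below in 2.33% (all genes 20.3%). Over the 7112 genes with no tie between arrays, 0 of 23 passed and the smallest adjusted p was 0.0550, for Atp5e, where 1.6% of all genes passed (1.03% higher, 0.576% lower). There 39.1% of the 23 were higher at an unadjusted p under 0.05 and 0 lower, against 10.3% and 11.3% of all genes. Mutant arrays were all above WT in 56.5% (all genes 19.7%) and all below in 0 (all genes 23.7%).

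**Figure D1:**
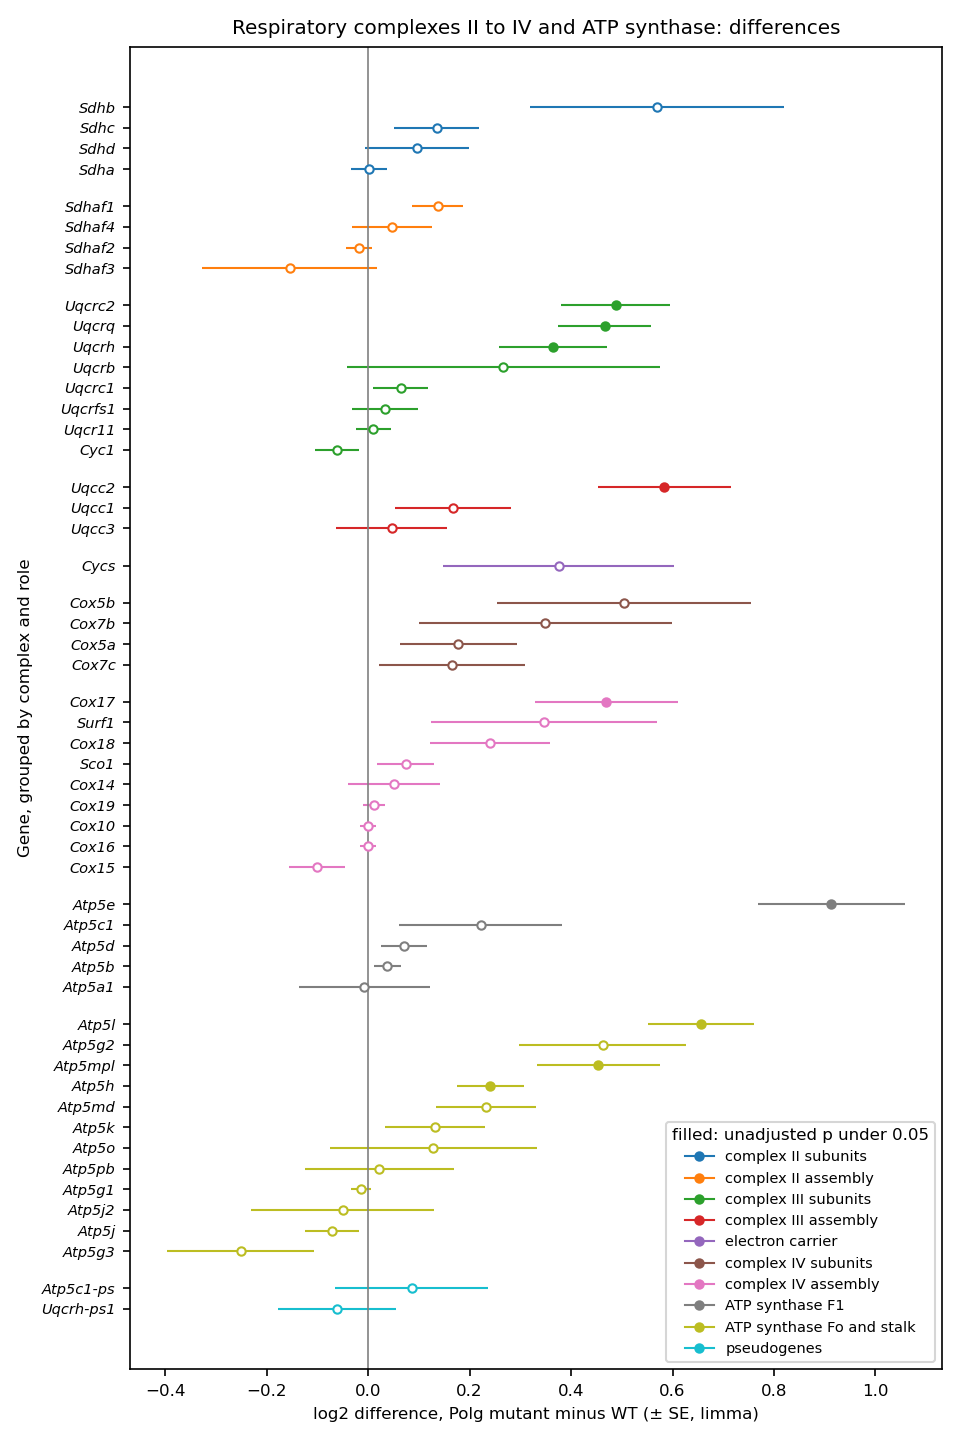
Log2 difference (Polg mutant minus WT, x axis) of each of the 52 genes, grouped by complex and role on the y axis. Points are estimates over 2 WT and 3 Polg mutant arrays, bars are limma standard errors, and filled points have an unadjusted p under 0.05. All 9 filled points lie to the right of 0, led by Atp5e at 0.91, and none of the complex II genes or complex IV subunit genes is filled.

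ATP synthase held the genes of smallest p. A ring in its membrane part, Fo, turns a central stalk inside the catalytic head, F1, and a peripheral stalk keeps the head from turning along. Of 17 subunit genes, 4 had an unadjusted p under 0.05, all higher (all genes 4.18%, bright genes 9.36%), and 7 had every Polg mutant array above both WT arrays (all genes 8.36%, bright genes 16.7%).

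Atp5e encodes epsilon, a small subunit at the foot of the central stalk. It read 7.64 and 7.71 in WT against 8.81, 8.38 and 8.58 in Polg mutants. The groups were far apart, and the estimate was 0.91 ± 0.15 (SE), or 1.88-fold, the largest of the 52 (limma adjusted p = 0.242). The gene has a second, dimmer probe set, which differed by 0.09 ± 0.06 with overlapping groups, so the size of the Atp5e difference rests on 1 probe set.

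Atp5l encodes subunit g, a membrane subunit found where ATP synthase pairs into dimers. It read 7.77 and 7.95 in WT against 8.63, 8.38 and 8.52 in Polg mutants, again with no overlap. The difference was 0.66 ± 0.10 (SE), or 1.58-fold (limma adjusted p = 0.242). With each of the 5 arrays left out, differences ran from 0.80 to 1.02 for Atp5e, 0.57 to 0.75 for Atp5l and 0.35 to 0.58 for Uqcrq. With the replicate block their unadjusted limma p was 0.059, 0.082 and 0.096. Losses of an unadjusted p under 0.05 by limma are listed here only for fits without a Polg mutant array. Of the 9 genes, Atp5h lost it without Polg mutant replicate 1 or 3. Cox17 lost it without replicate 1, and Uqcrh and Atp5mpl without replicate 2. Fits without a WT array leave 1 WT array, so the list does not show which genes hold in every fit. Over all 5 fits the difference ran from 0.40 to 0.54 for Uqcrc2 and 0.49 to 0.67 for Uqcc2. The 9 genes were picked by p on these same arrays, so such fits are not independent of that choice.

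The 250 bases before the start of Atp5l and of Atp5e, the ATP synthase genes with the smallest p, are printed to show what lies upstream of them, from RefSeq on GRCm38.p6, 5′ to 3′ on the gene's own strand. They lie on the minus strand at chr9:44920743-44920992 and chr2:174464102-174464351. Capitals mark a match to any of the motif letters given after them.

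Atp5l: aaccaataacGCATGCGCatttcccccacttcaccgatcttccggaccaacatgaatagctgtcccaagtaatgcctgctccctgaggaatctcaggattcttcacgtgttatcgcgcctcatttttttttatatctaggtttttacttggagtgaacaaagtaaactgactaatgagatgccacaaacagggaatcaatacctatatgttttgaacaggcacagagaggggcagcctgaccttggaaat

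Atp5e: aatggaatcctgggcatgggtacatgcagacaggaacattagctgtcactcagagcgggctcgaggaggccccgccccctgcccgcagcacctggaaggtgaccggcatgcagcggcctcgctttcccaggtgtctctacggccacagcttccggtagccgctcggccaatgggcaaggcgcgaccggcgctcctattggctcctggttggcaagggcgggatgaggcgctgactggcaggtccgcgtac

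The letters GCGCATGC are the core of the motif of NRF1, a transcription factor known for nuclear respiratory genes, and they occur in Atp5l on the opposite strand, 240 bases before the start. In the windows searched on both strands, 5 of the 41 genes of the group with a promoter in the table held these letters (12.2%), against 3.44% of the 16990 genes tested that have one. Those 5 were Atp5g2, Atp5k, Atp5l, Cycs and Sdhb. The letters ACTTCCGG, of the factor GABP, were found in 5 of 41 (12.2%, all genes 4.23%), which were Atp5h, Cox10, Cox16, Uqcr11 and Uqcrh. AAGATGGCG, of YY1, was found in 1 of 41, Atp5j (2.44%, all genes 0.871%), and TGATGCAA, of ATF4 with a C/EBP partner, in 0 of 41 (all genes 0.8%). The Atp5e window held none of the 4 motifs, no motif contains another, and a match describes letters, not binding.

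Atp5mpl encodes a small proteolipid of the membrane part. Its values were 7.10 and 6.92 in WT against 7.62, 7.47 and 7.30 in Polg mutants, a difference of 0.45 ± 0.12 (SE) or 1.37-fold (limma adjusted p = 0.391). The third Polg mutant array was closest to WT. Atp5h encodes subunit d of the peripheral stalk and read 10.74 and 10.86 in WT against 11.08, 10.95 and 11.09 in Polg mutants. The groups were separate but close, at 0.24 ± 0.07 (SE) or 1.18-fold (limma adjusted p = 0.397). A second, dimmer probe set of Atp5h went the other way, at -0.08 ± 0.09.

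Subunit c, the unit of the turning ring, is made from 3 genes, Atp5g1, Atp5g2 and Atp5g3, which differ in their import sequences and give the same mature protein. Their estimates had different signs. Atp5g2 read 9.49 and 9.91 in WT against 10.30, 10.10 and 10.08 in Polg mutants, with no overlap and a difference of 0.46 ± 0.16 (SE; limma adjusted p = 0.539). Its second probe set gave 0.40 ± 0.14, also with no overlap. Atp5g3 read 7.06 and 7.32 in WT against 7.03, 7.03 and 6.74 in Polg mutants, a difference of -0.25 ± 0.14 (SE; limma adjusted p = 0.638) and the lowest of the 52. Atp5g1 read 5.43 on both WT arrays against 5.40, 5.43 and 5.43 in Polg mutants, a difference of -0.01 ± 0.02. Whether the 3 genes differ from each other in their response was not tested.

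Atp5b, the catalytic beta subunit, read 12.76 and 12.71 in WT against 12.79, 12.78 and 12.76 in Polg mutants, and its groups overlapped (0.04 ± 0.03, SE). Atp5a1, the alpha subunit, differed by -0.01 ± 0.13 and Atp5c1, the gamma subunit of the central stalk, by 0.22 ± 0.16. The Atp5c1 difference turned on the WT arrays: it was -0.01 without WT replicate 2 and 0.46, with an unadjusted p under 0.05, without WT replicate 1. Atp5d, the delta subunit beside epsilon, differed by 0.07 ± 0.05 on its brighter probe set and by 0.44 ± 0.18 on the other, with every Polg mutant array above both WT arrays on each. Among the remaining membrane and stalk genes, differences ran from -0.07 for Atp5j to 0.23 for Atp5md, a dimer-associated subunit whose groups did not overlap.

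**Figure D2:**
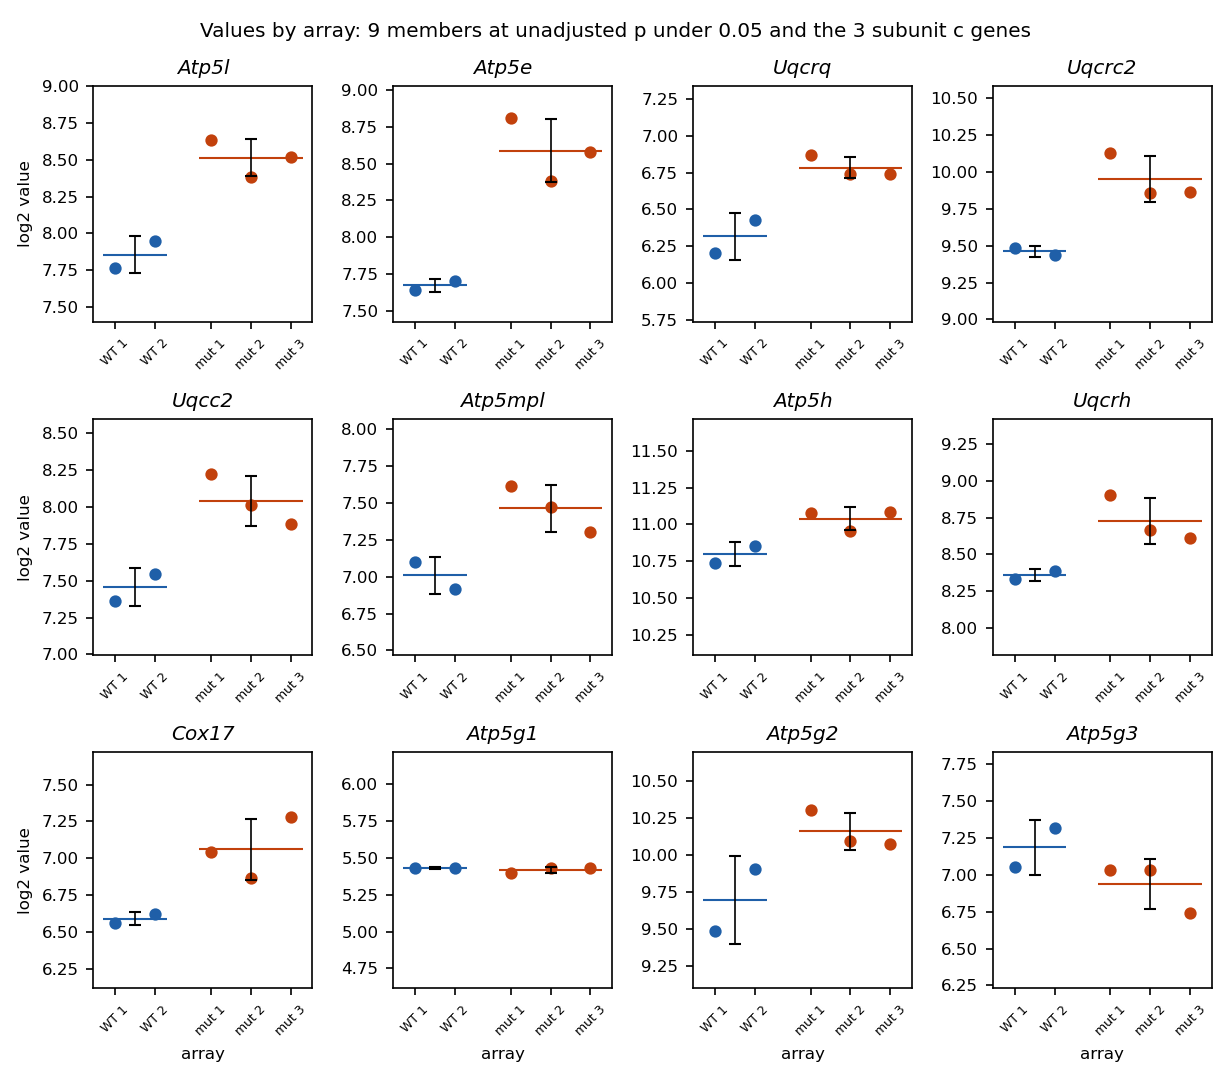
Log2 values (y axis, each panel with its own range) on each array (x axis, mut is Polg mutant) for the 9 genes at an unadjusted p under 0.05 and the 3 genes of ATP synthase subunit c. Coloured lines are group means and black bars ± SD, with 2 WT and 3 Polg mutant arrays. In the first 9 panels and for Atp5g2 the Polg mutant arrays lie above both WT arrays, while Atp5g3 lies below them.

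Complex III takes electrons from reduced coenzyme Q and hands them to cytochrome c. Of its 8 subunit genes measured here, 3 had an unadjusted p under 0.05, all higher (all genes 4.18%, bright genes 9.36%), and the median difference was 0.17. Uqcrc2, which encodes the second of its core proteins, read 9.49 and 9.44 in WT against 10.13, 9.86 and 9.86 in Polg mutants. Polg mutant replicate 1 was the highest and there was no overlap. The difference was 0.49 ± 0.11 (SE) or 1.40-fold (limma adjusted p = 0.311). Its partner core gene Uqcrc1 differed by 0.06 ± 0.05, with overlapping groups.

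Uqcrq encodes a small subunit at the membrane and read 6.21 and 6.43 in WT against 6.87, 6.74 and 6.74 in Polg mutants. The last pair of values are an exact tie, and the difference was 0.47 ± 0.09 (SE) or 1.38-fold (limma adjusted p = 0.282). Uqcrh, the hinge protein that lies against cytochrome c1, read 8.33 and 8.39 in WT against 8.90, 8.67 and 8.61 in Polg mutants, with no overlap. It differed by 0.36 ± 0.11 (SE) or 1.29-fold (limma adjusted p = 0.432). The subunits that carry the redox centres were nearer to 0: Cyc1, the cytochrome c1 heme protein, differed by -0.06 ± 0.04, and Uqcrfs1, the Rieske iron-sulfur protein, by 0.03 ± 0.06. Uqcr11, a small accessory subunit, differed by 0.01 ± 0.03. Uqcrb, which contacts the coenzyme Q site, varied too much within groups to place, at 11.03 and 10.57 in WT against 11.36, 11.22 and 10.61 in Polg mutants.

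Among the complex III assembly genes, Uqcc2, needed for making and stabilising cytochrome b, read 7.37 and 7.55 in WT against 8.22, 8.01 and 7.88 in Polg mutants. The groups were separate, with a difference of 0.58 ± 0.13 (SE; limma adjusted p = 0.319), the largest of the 16 assembly factor genes. Uqcc1, its partner in that step, differed by 0.17 ± 0.11 and Uqcc3 by 0.05 ± 0.11, each with overlapping groups.

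Cytochrome c, the mobile carrier between complexes III and IV and a trigger of apoptosis when released, is encoded by Cycs. Its brightest probe set read 9.98 and 9.43 in WT against 10.21, 10.19 and 9.85 in Polg mutants. WT replicate 2 and Polg mutant replicate 3 were the lowest pair, and the groups overlapped (0.38 ± 0.23, SE; limma adjusted p = 0.638). Cycs has 5 probe sets, 2 of which hold identical values, and all gave differences above 0, from 0.08 to 0.84. The gene has processed copies in the genome, and these probe sets may not separate them from it.

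Complex IV passes electrons to oxygen. Its 4 measured nuclear subunit genes, Cox5a, Cox5b, Cox7b and Cox7c, had a median difference of 0.26. On their brightest probe sets 0 reached an unadjusted p under 0.05 and in each the groups overlapped. With the mean of each gene's probe sets the median was 0.17. Cox5b then differed by 0.39 (limma unadjusted p = 0.031) and Cox7b by 0.07 (limma unadjusted p = 0.69). The second, dim probe set of Cox5b gave 0.28 ± 0.16, with every Polg mutant array above both WT arrays. That of Cox7b, also dim, went the other way, at -0.21 ± 0.27 with overlapping groups. Cox5b read 9.39 and 9.09 in WT against 9.93, 9.95 and 9.35 in Polg mutants, a difference of 0.50 ± 0.25 (SE; limma adjusted p = 0.638). The third Polg mutant array lay at the WT level. Cox7b had the same shape, at 11.31 and 11.20 in WT against 11.88, 11.75 and 11.19 in Polg mutants. Without Polg mutant replicate 3 the differences were 0.70 for Cox5b and 0.56 for Cox7b, each with an unadjusted limma p under 0.05. That array was the lowest mutant array in both genes, so leaving it out had to raise the difference, and this p lends no support. Without Polg mutant replicate 1 the differences were 0.41 and 0.21, and without replicate 2 they were 0.40 and 0.28. Neither gene reached an unadjusted limma p under 0.05 in those fits. Cox5a differed by 0.18 ± 0.12, with WT replicate 1 the lowest array and 3 distinct values over the 5 arrays. Cox7c differed by 0.17 ± 0.14, its highest value on Polg mutant replicate 1.

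Against 4.18% of all genes and 9.36% of bright genes, 1 of the 9 complex IV assembly genes was higher at an unadjusted p under 0.05. This was Cox17, the chaperone that brings copper to the Sco proteins, at 6.56 and 6.62 in WT against 7.04, 6.86 and 7.28 in Polg mutants. The groups did not overlap and the difference was 0.47 ± 0.14 (SE) or 1.38-fold (limma adjusted p = 0.448). Sco1, which passes copper on to the enzyme, differed by 0.07 ± 0.06. Surf1, an early assembly factor, differed by 0.35 ± 0.22 with overlapping groups. Cox18, which inserts part of a mitochondrially made subunit into the membrane, differed by 0.24 ± 0.12 with no overlap. Cox10 and Cox15 encode the enzymes of heme A synthesis: Cox10 had a single value, 6.47, on all 5 arrays, and Cox15 differed by -0.10 ± 0.05. Cox16 likewise read 5.43 on every array, and Cox14 and Cox19 differed by 0.05 ± 0.09 and 0.01 ± 0.02.

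Complex II links the tricarboxylic acid cycle to the chain by oxidising succinate. Its 4 subunit genes had a median difference of 0.12 and 0 reached an unadjusted p under 0.05. Sdhb, the iron-sulfur subunit, read 7.41 and 7.58 in WT against 8.47, 7.77 and 7.95 in Polg mutants. The groups did not overlap, but Polg mutant replicate 1 stood well above the other arrays, and the difference of 0.57 ± 0.25 (SE; limma adjusted p = 0.638) was 0.37 without it. Sdha, the flavoprotein that binds succinate, read 9.52 and 9.43 in WT against 9.48, 9.46 and 9.48 in Polg mutants, a difference of 0.00 ± 0.04. The membrane anchors Sdhc and Sdhd differed by 0.14 ± 0.08 and 0.10 ± 0.10. Among the assembly factors, Sdhaf1, which helps place the iron-sulfur clusters, differed by 0.14 ± 0.05 with no overlap. Sdhaf3, which acts on the same subunit, differed by -0.15 ± 0.17, Sdhaf2, which attaches the flavin to Sdha, by -0.02 ± 0.03, and Sdhaf4 by 0.05 ± 0.08.

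Set side by side, the 33 subunit genes had a median difference of 0.14 and the 16 assembly factor genes one of 0.05. Of the subunit genes 7 were higher at an unadjusted p under 0.05 and 27 lay above 0. Of the assembly factor genes 2 were higher at that p and 11 lay above 0. Beside the counts at that p stand 4.18% of all genes and 9.36% of bright genes, and the share of assembly factor genes at that p was not far from the latter. Differences above 0 were found in 10330 of all 22180 genes tested and in 3963 of the 8174 bright genes. Class medians were 0.12 for complex II subunits, 0.17 for complex III, 0.26 for complex IV, 0.07 for F1 and 0.13 for the membrane and stalk part of ATP synthase. The assembly classes gave 0.01 for complex II, 0.17 for complex III and 0.05 for complex IV. No difference between classes was tested, and the pseudogenes Atp5c1-ps and Uqcrh-ps1, at 0.09 and -0.06 with dim signals, are counted in no class.

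**Figure D3:**
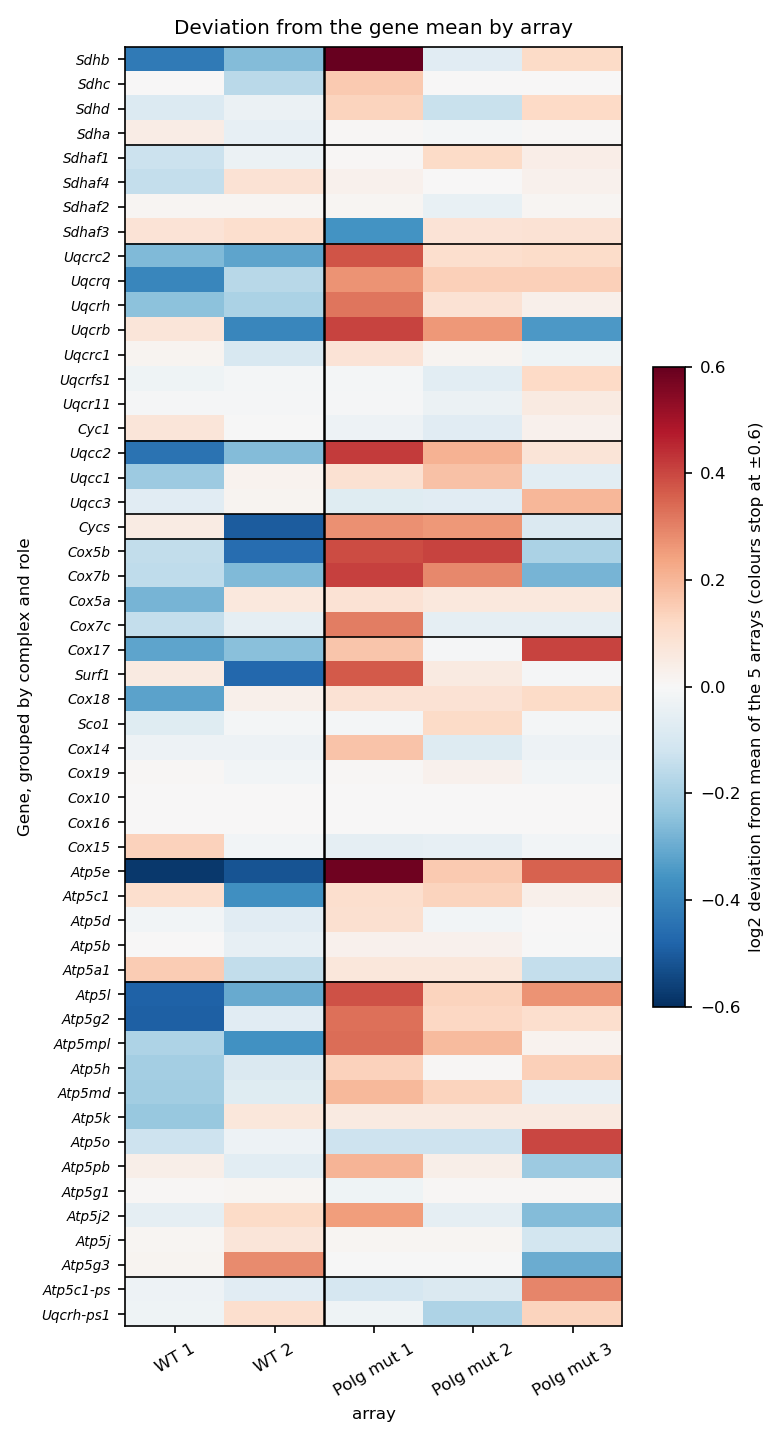
Deviation of each of the 52 genes (y axis, grouped by complex and role) from its own mean over the 5 arrays, by array (x axis), as log2 units in colour. The vertical line separates the 2 WT from the 3 Polg mutant arrays. Polg mutant replicate 1 is the sole highest array in 24 genes, and rows such as Cycs, Cox5b and Uqcrb are low in both WT replicate 2 and Polg mutant replicate 3.

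The arrays did not contribute evenly. Polg mutant replicate 1 was the sole highest array in 24 of the 52 genes, Polg mutant replicate 2 in 6 and Polg mutant replicate 3 in 9, while WT replicate 1 was the sole lowest in 18 and WT replicate 2 in 14. The median deviation from the gene mean was -0.04 and -0.05 on the WT arrays and 0.09, 0.02 and 0.02 on the Polg mutant arrays.

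A part of the genes divided the arrays in another way. In 11 of the 52 (21.2%, all genes 7.84%) WT replicate 2 and Polg mutant replicate 3 were both below the other 3 arrays. These were Atp5a1, Atp5b, Atp5c1, Atp5pb, Cox19, Cox5b, Cox7b, Cycs, Surf1, Uqcrb and Uqcrc1. The same split held in 13 of the 14 neutrophil markers measured. A gene whose mutant arrays are all above or all below WT cannot show this split, so its absence from such genes says nothing about leukocyte content. All 9 erythroid markers had differences below 0, with a median of -0.23. Of these, 3 were lower at an unadjusted p under 0.05 (all genes 5.33%, bright genes 12.6%). In 8 of the 9 every Polg mutant array was below both WT arrays (all genes 9.73%, bright genes 20.6%). The mean level of the 9 was 12.13 and 11.95 in WT and 11.72 to 11.81 in Polg mutants. B cell markers, 8 in number, also lay below 0 throughout, at mean levels of 4.88 to 5.75. Of these, 1 was lower at an unadjusted p under 0.05 (all genes 5.33%), Vpreb3, at -0.17 ± 0.05 with no overlap. The 10 macrophage markers averaged 5.94 to 6.26 on the arrays and 8 T and NK cell markers 4.73 to 4.93. Of 6 megakaryocyte markers, 1 was lower at an unadjusted p under 0.05 (all genes 5.33%), Gp9, at -1.36 ± 0.14. The median of the 6 was -0.13. Vwf, Gp5 and Itga2b differed by -0.13, -0.13 and -0.14, Pf4 by 0.03 and Ppbp by -0.93 ± 1.10. The part of these cell types in the values of the respiratory genes was not tested.

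Exact ties limit the table. Of the 52 genes, 29 (55.8%) had the same value on at least 2 arrays, against 67.9% of all genes tested, and 2 had 1 value on all 5. Of the 9 genes at an unadjusted p under 0.05, 1 was tied, Uqcrq. In the fit without WT replicate 2, 3 genes passed an adjusted p of 0.05 by limma: Atp5k (0.0189), Cox5a (0.0264) and Cox18 (0.0307). In these the 3 Polg mutant arrays held 1, 2 and 2 distinct values, and 924 genes of the 22180 passed in that fit. In the fit without WT replicate 1, 1781 of the 22180 passed and 0 of the 52.

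**Figure D4:**
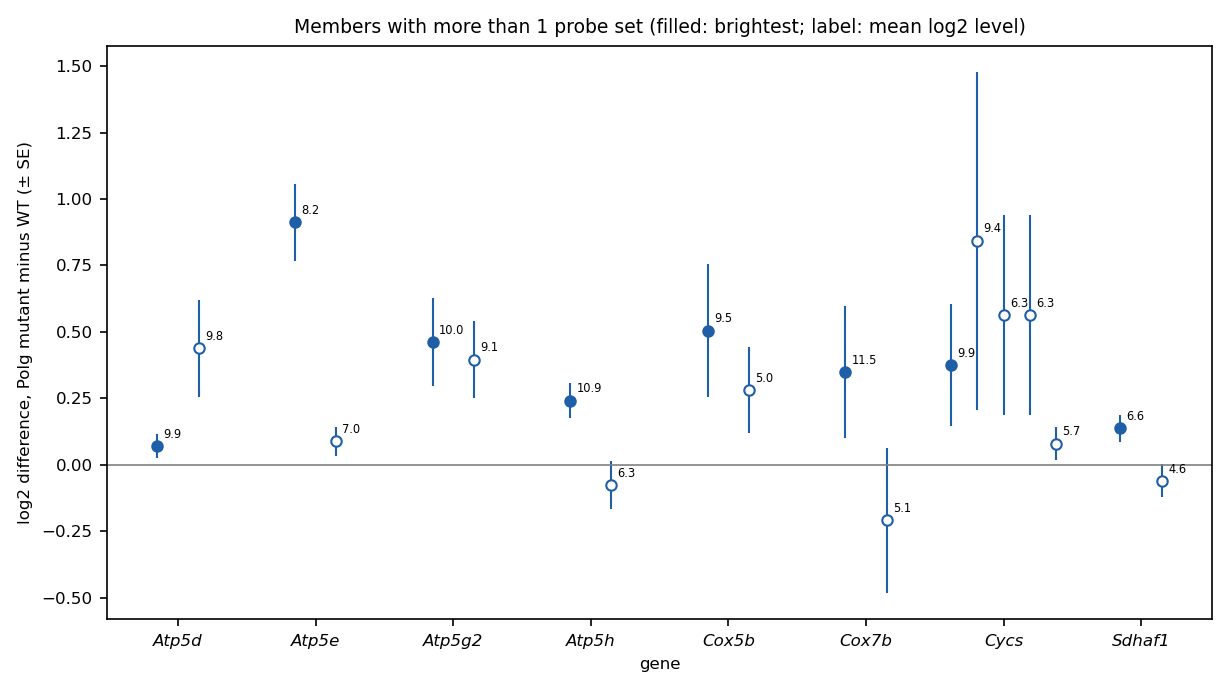
Log2 difference, Polg mutant minus WT (y axis, ± SE, limma over all probe sets), of each probe set of the 8 genes with more than 1 (x axis); numbers are mean log2 levels and filled points the brightest probe set. Atp5g2 agrees between its probe sets, at 0.46 and 0.40, while Atp5e gives 0.91 and 0.09, and the probe sets of Atp5h, Cox7b and Sdhaf1 differ in sign.

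Other genes of the same pathways, from lists set by function, were counted in the same way, and each count below stands beside 4.18% higher and 5.33% lower over all genes, or 9.36% and 12.6% over genes with a mean above a log2 of 6. Of 16 further assembly genes of complexes III and IV, 3 were higher at an unadjusted p under 0.05 and 0 lower. Ttc19, which clears fragments left by complex III assembly, differed by 0.11 ± 0.02 (SE) and Coa5, a complex IV assembly factor, by 0.34 ± 0.06. Of 5 ATP synthase assembly and inhibitor genes 0 had it, with Atpif1, the inhibitor, at -0.08 ± 0.05 and Atpaf1, a chaperone of the F1 head, at 0.22 ± 0.15. Of 12 coenzyme Q synthesis genes 0 had it, with Coq5 at 0.17 ± 0.06 and Coq3 at 0.44 ± 0.16. Of 13 tricarboxylic acid cycle genes 2 were higher and 0 lower, with Suclg2, a succinyl-CoA ligase subunit, at 0.50 ± 0.08 and Idh3b at 0.10 ± 0.03.

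Of 10 genes of the outer membrane, import channel and cristae, 4 were higher at an unadjusted p under 0.05 (all genes 4.18%) and 0 lower (all genes 5.33%). They included Tomm70a and Tomm20, import receptors on the mitochondrial surface, at 0.36 ± 0.03 and 0.65 ± 0.09, while the channel genes Vdac1, Vdac2 and Vdac3 differed by -0.03, 0.09 and -0.01. Of 11 regulators of respiratory genes, 1 was higher, Myc at 0.91 ± 0.22, and 0 lower. Nrf1 itself differed by -0.30 ± 0.11 and Gabpb1, the partner subunit of GABP, by -0.29 ± 0.11, neither at an unadjusted p under 0.05. In 3 of the 11, Nrf1, Gabpb1 and Hcfc1, every Polg mutant array was below both WT arrays (all genes 9.73%, bright genes 20.6%). In 1, Myc, every one was above (all genes 8.36%, bright genes 16.7%).

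Of the core subunits of these complexes made from mitochondrial DNA, 3 could be set beside the nuclear ones, a list chosen after the data were seen. The complex IV gene COX3 read 12.87 and 12.75 in WT against 13.20, 13.04 and 12.99 in Polg mutants, a difference of 0.26 ± 0.09 (SE) with no overlap. COX1 differed by 0.09 ± 0.07 and the complex III gene CYTB by 0.06 ± 0.07, both with overlapping groups.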

How the data were processed

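Per the labels and the table itself, the authors deposited normalised log2 signals of 41345 probe sets for each of the 5 Affymetrix arrays. The submitters' processing notes name RMA and Partek 6.5 without saying what each did. That the unit is log2 follows from the range of the values, 1.43 to 14.1, and the array medians, 5.10 to 5.13. Scanner output was not used, so signal over background is unknown, and the number of arrays limits the precision. The genome build of the array annotation is not given in the sources used here. Printed promoter positions are those of RefSeq.

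GEO's annotation of the platform gave the gene names: 23521 probe sets had 1 symbol, 1814 several and 16010 none. The table's symbols and those of RefSeq were identical for every named gene (0 changed). Only single-symbol probe sets were used, and the brightest per gene over all arrays was kept, without a filter on dim genes. The genotypes were set against each other by limma 3.58.1 under R 4.3.3, with genotype as the single term, eBayes without a trend, two-sided, with Benjamini-Hochberg adjustment over all 22180 genes. An exact permutation test of 2 against 3 arrays could not go below p = 0.1. The fit was tested on simulated data. Genes described singly are those at an unadjusted p under 0.05, the pair with the largest differences in each class, a fixed set of core subunits, Polg, and up to 2 genes of smallest p per pathway list. Others named in the text were chosen after their values were seen. The genes, lists and tests were chosen with earlier results of these data known. Alternatives were other variance moderation, filters, scalings, probe set rules, symbols as the platform gives them, a replicate block and leaving out each array. The comparison with equally bright genes and the next brightest probe set were added after seeing the data.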

Additional observations from a re-analysis of the deposited data

How the results depend on the processing

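Over 15 alternatives and the next brightest probe set, the 28 genes described singly kept the sign of their difference in 396 of 413 values. Many of these values could not change sign. Other variance moderation, the gene filters and the platform's symbols leave the estimate of a gene as it is. The total is therefore no measure of stability. The 17 reversals were all of genes that did not reach an unadjusted p under 0.05, except Atp5h on its next brightest probe set (-0.077). On such probe sets Cox7b gave -0.21 and Sdhaf1 -0.061. Atp5a1 gave 0.037 after renewed quantile normalization, 0.062 with the replicate block and -0.16 to 0.14 with an array left out. Atp5b gave -0.018 after quantile normalization. Atp5c1 gave -0.012 without WT replicate 2 and 0.46 without WT replicate 1. Sdha gave -0.0039 after median centring, -0.0021 with the block and -0.045 to 0.048 with an array left out. Uqcrfs1 gave -0.015 after quantile normalization, -0.019 with the block and -0.019 to 0.072 with an array left out.

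The count past the adjusted threshold was 0 in every alternative except the fit without WT replicate 2 (range 0 to 3 over the arrays left out), as the count lower at an unadjusted p under 0.05 was 0 except without either WT array (0 to 1). At an unadjusted p under 0.05 by limma, 9 genes were higher; the count was 12 after quantile normalization, 10 after median centring, 6 with the replicate block, and 5 to 11 with an array left out. With all arrays, 15 genes had every Polg mutant array above both WT arrays and 1 had every one below. Without Polg mutant replicate 1, 2 or 3, the counts were 15, 16 and 21 above and 1, 1 and 4 below. Against the single WT array left without WT replicate 1 or 2, they were 26 and 21 above and 6 and 5 below. Leaving out an array can only keep or raise such counts, and shares of all genes were not counted there. The count below was 4 after median centring, 6 after quantile normalization and 0 among untied genes.

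The median over the 52 genes was 0.35 among untied genes and 0.079 to 0.12 with an array left out. Among untied genes, a choice not independent of the differences, class medians were 0.33 and 0.092 for complex II subunits and assembly, 0.32 and 0.38 for complex III, 0.47 for complex IV assembly and 0.45 for the membrane and stalk part of ATP synthase. With an array left out, they ran from -0.043 to 0.072 for complex II assembly, 0.038 to 0.26 and 0.048 to 0.29 for complex III subunits and assembly, 0.011 to 0.077 for complex IV assembly and 0.077 to 0.23 for the membrane and stalk part, 0.011 to 0.14 for F1, 0.066 to 0.17 for complex II subunits and 0.19 to 0.39 for complex IV subunits. The replicate block gave 0.26 for complex III subunits and 0.077 for complex IV assembly. Complex IV assembly gave -0.0012 after quantile normalization, complex III assembly 0.38 among genes above a log2 of 6, and F1 0.22 with the mean of probe sets. The cause of these moves was not tested.

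Replicate numbers are not said to pair the arrays. Deviations of same-numbered arrays correlated at 0.19 and -0.20 across genes, with 2 pairs, so the block shows only how the count moves. No WT array is numbered 3, so Polg mutant replicate 3 drops out of the fit with the block. Of the 9 genes, Atp5mpl and Uqcrc2 were under an unadjusted p of 0.05 in that fit, and Atp5e, Atp5l, Uqcrq, Uqcc2, Uqcrh, Cox17 and Atp5h were not, all 9 with differences above 0. The other 4 of its 6 genes were Cox5b, Cox7b, Sdhaf1 and Sdhc. Platform symbols gave identical results. The counts of separated arrays involve neither moderation nor the block.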
